A study of Mus musculus with 52 samples.

Results

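The promoters described here belong to 54 developmental homeobox and paired box genes that lie outside the Hox clusters and are known as Polycomb targets in embryonic stem cells. They were selected by gene symbol from the 20633 promoters for which chromatin accessibility was deposited, and all 54 genes were found. Lhx2 and Lhx9 each had a pair of promoters, so that the set holds 56 promoter intervals of 400 bp on 15 chromosomes. No Polycomb protein or histone mark was measured in the tables used, so the name of the set rests on general knowledge and was not tested on these data.

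Homeobox genes encode transcription factors that bind DNA through a homeodomain and set the identity of tissues and body regions. In embryonic stem cells most genes of this kind are silent, yet their promoters often lie in CpG islands, which stay free of DNA methylation and carry Polycomb repressive complexes. KDM2B takes a variant PRC1 complex to CpG islands through its ZF-CxxC domain, which binds unmethylated CpG, and its paralogue KDM2A binds CpG islands through the same kind of domain.

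Calibrated ATAC-seq (cATAC-seq) had been performed in mouse embryonic stem cells (mESCs) of 4 conditional lines, in which the Tn5 transposase cuts open DNA and Drosophila SG4 cells mixed in at the start serve to scale the mouse signal. In Kdm2a/b-JmjCfl/fl cells 4-hydroxytamoxifen (800 nM for 96 h) removes the long isoforms of KDM2A and KDM2B. In Kdm2a/b-CXXCfl/fl cells it removes the ZF-CxxC domain of both proteins, and in Kdm2a-CXXCfl/fl and Kdm2b-CXXCfl/fl cells that of KDM2A or of KDM2B alone. There were 3 untreated and 3 tamoxifen-treated libraries per line, or 4 and 4 for Kdm2a/b-CXXC, and 26 in all. All lines carry a tamoxifen-dependent CRE recombinase, and no line without floxed alleles was treated, so an effect of tamoxifen or CRE itself cannot be told apart from that of the deletion. The Kdm2a/b-JmjC line was derived from mice. For the Kdm2a-CXXC and Kdm2a/b-CXXC lines, genome editing placed loxP sites on both sides of exon 14 of Kdm2a. The edited cells were cells with the CRE recombinase for Kdm2a-CXXC and Kdm2b-CXXCfl/fl cells for Kdm2a/b-CXXC. Kdm2a/b-CXXC and Kdm2b-CXXC thus share an origin and are not unrelated lines. Each genotype is represented by 1 line, so p-values measure the spread between libraries of 1 line. The study's methods call the libraries biological replicates, and the labels do not say how they were separated.

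Libraries held 1.49 to 3.03 M promoter reads, and the median promoter had 58 to 108 of them. Values below are calibrated reads, the reads at a promoter divided by the spike-in size factor of its library, unless a percentile is named. A percentile is the rank of a promoter's reads among all promoters of the same library, where 100 is the most accessible, and it does not depend on the scaling. Markers of embryonic stem cells, among them Pou5f1 and Nanog, had a median untreated percentile of 69.6 over 10 promoters. Medians were 43.2 for primitive endoderm, 37.8 for trophoblast and 30.2 for fibroblast markers. At the member promoters, untreated libraries held between 0 reads at Pax5 and 365 at Gbx2.

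Promoter DNA of members that bear on the results is shown first, as the stretch of the 200 bases before the RefSeq start that holds no annotated exon, 5′ to 3′ on the gene's strand in GRCm38 (mm10), with each CpG in capitals. Pitx3 (chr19:46148327-46148525, minus strand) was among the most accessible members and the downstream Lhx9 promoter (chr1:138842458-138842644, minus strand) among the least accessible. En1 (chr1:120602287-120602417, plus strand), Nkx6-2 (chr7:139582798-139582997, minus strand), Nkx2-5 (chr17:26841609-26841765, minus strand) and Otp (chr13:94875436-94875601, plus strand) had some of the smallest p-values after tamoxifen.
Pitx3: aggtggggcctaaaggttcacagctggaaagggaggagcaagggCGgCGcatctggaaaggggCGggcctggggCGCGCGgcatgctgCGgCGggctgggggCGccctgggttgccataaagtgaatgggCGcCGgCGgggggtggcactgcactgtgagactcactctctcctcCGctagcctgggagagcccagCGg
Lhx9 (NM_001042577): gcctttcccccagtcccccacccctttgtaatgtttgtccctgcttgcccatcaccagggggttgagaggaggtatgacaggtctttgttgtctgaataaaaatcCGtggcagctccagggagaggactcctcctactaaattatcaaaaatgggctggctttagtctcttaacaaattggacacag
En1: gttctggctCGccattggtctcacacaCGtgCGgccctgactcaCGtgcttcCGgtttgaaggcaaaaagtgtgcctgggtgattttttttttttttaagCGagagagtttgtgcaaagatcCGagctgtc
Nkx6-2: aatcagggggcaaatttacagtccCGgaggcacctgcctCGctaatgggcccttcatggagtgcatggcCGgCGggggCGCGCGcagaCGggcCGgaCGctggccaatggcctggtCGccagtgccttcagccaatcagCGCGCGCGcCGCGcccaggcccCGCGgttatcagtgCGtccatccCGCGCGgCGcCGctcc
Nkx2-5: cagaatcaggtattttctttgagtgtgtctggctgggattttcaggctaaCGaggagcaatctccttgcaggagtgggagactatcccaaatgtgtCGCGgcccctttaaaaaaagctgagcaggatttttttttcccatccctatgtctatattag
Otp: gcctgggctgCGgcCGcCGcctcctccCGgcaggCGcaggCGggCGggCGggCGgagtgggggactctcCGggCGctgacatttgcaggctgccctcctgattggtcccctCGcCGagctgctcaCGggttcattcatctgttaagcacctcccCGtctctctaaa
Of these, the Nkx6-2 stretch held the most CpGs, 25 in 200 bases, and the Lhx9 stretch the fewest, 1 in 187 bases. Each stretch shown lies inside the interval whose reads were counted.

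Most member promoters were rich in CpG. CpG-rich promoters were defined as those with a GC content of 50% or more and CpG at 0.6 or more of the number that base composition predicts, taken over the 400 bp interval, and 43 of 56 members (76.8%) met this, beside 54.6% of the 20630 promoters with sequence. The median GC content was 64.9% in members and 60.2% in all promoters, and the median number of CpGs was 29 and 24. Barx1 (66 CpGs), Irx2 (62) and Six2 (60) held the most. Pax5 and Meis2, with 8 each, held the fewest. The sequence GGGCGG, searched on both strands, stood in 71.4% of members, 56.3% of all promoters and 82.7% of CpG-rich promoters. CCAAT stood in 48.2% of members and 40.03% of all promoters, TATAAA in 8.93% and 10.4%, and TAATTA, the core that many homeodomains bind, in 3.57% and 3.92%. GGGCGG itself holds a CpG, so its share moves with CpG content.

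The annotated start of the gene lay within 200 bp of the interval's centre for 53 of the 56 members. For Pax2, Pax5 and Lmx1b it lay outside the interval, so these values describe DNA beside the start. The Nkx2-1 identifier matched a GENCODE transcript that begins downstream of the main start of the gene. In 12 members another gene began within 1 kb, and in 5, among them Emx2 with Emx2os, it began inside the interval. ATAC-seq has no strand, so accessibility at such a pair cannot be divided between the genes.

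Before treatment, most member promoters lay between percentile 25 and 75. The median member lay at percentile 47.0 (mean over the 4 lines), with a middle range of 36.9 to 57.5, beside 50.5 for all promoters. There were 3 members below percentile 25, 27 between 25 and 50, 23 between 50 and 75, and 3 above 75. The difference from all promoters of the same broad class had opposite signs in the CpG-rich and the other members. The 43 CpG-rich members had a median of 50.5 and all 11262 CpG-rich promoters 70.6. Members that were not CpG-rich lay at 35.6 and all such promoters at 20.6. CpG number was not matched within these classes, and the members that were not CpG-rich held from 8 CpGs at Meis2 to 26 at Pitx3. Whether they differ from promoters of the same CpG number was not tested. Across the 56 members the percentile went up with the number of CpGs (Spearman 0.44), less than across all promoters (0.75), and both are descriptions over promoters that share libraries.

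**Figure D1:**
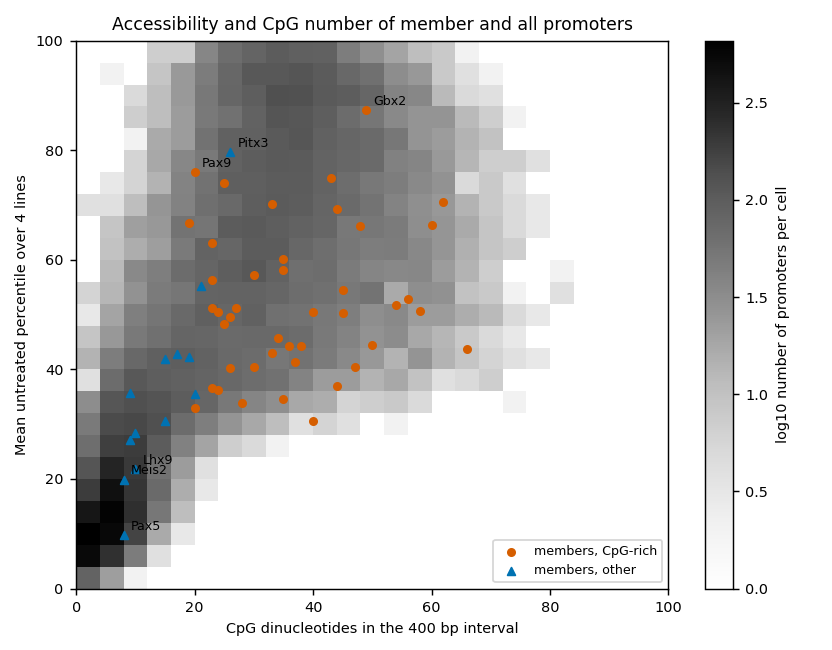
Mean untreated percentile of accessibility over the 4 lines (vertical axis) against the number of CpG dinucleotides in the 400 bp interval (horizontal axis), with all promoters as grey cells (log10 number per cell) and members as orange circles (CpG-rich) or blue triangles (other). Members above percentile 75 and below 25 are named, and most of the CpG-rich members lie in the lower part of the grey cloud at their CpG number.

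Set beside related lists, the members lay between the Hox cluster genes and the broadly expressed homeobox genes. The 42 Hox promoters had a median percentile of 36.6, and the 22 of them that were CpG-rich 45.2. The 30 promoters of broadly expressed homeobox genes had a median of 51.7, and their 17 CpG-rich ones 65.0. That list also holds Pou5f1 and Nanog, which are named above as markers of embryonic stem cells, so not all of its genes are broadly expressed. The 35 promoters of Polycomb component genes, which mESCs express, lay at 77.8. These medians are descriptions with no test.

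The paired box genes spanned almost the whole range. Pax9, which patterns pharyngeal pouches and vertebrae, lay at percentile 76.0, and its relative Pax1 at 34.5. Pax7, a marker of muscle stem cells, lay at 51.2, Pax2 (kidney and optic stalk) at 44.4 and Pax8 (thyroid) at 27.1. Pax5, the commitment factor of B cells, was the least accessible member at 9.72. Its untreated libraries ranged from percentile 0.3 to 18.4, at 0 to 12 reads, so that its level was near the limit of the depth. Pax9 by contrast ranged from percentile 68.8 to 83.9, at 115 to 256 reads, and no library of Pax9 overlapped with one of Pax5.

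The sine oculis homologues lay in the upper part of the set, except Six3. Six6, of the eye and pituitary, lay at 70.2, Six2, of nephron progenitors, at 66.4 and Six4 at 56.4. Six3, of the forebrain and eye, lay at 36.2.

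Among the LIM homeodomain genes, Isl1 and Isl2, which act in motor neurons, were the most accessible at 74.9 and 74.0. Lhx2 lay at 60.2 at the promoter NM_010710 and at 44.4 at NM_001290646, about 12 kb upstream of it. Lhx4 lay at 51.2, Lhx5 at 44.3, Lmx1a at 42.0, Lmx1b at 37.0, Lhx8 at 35.8, Lhx6 at 33.0 and Lhx3 at 30.6. The Lhx9 promoters lay at 28.5 (NM_010714) and 21.8 (NM_001042577). Lhx3 and Lhx4, a paralogue pair that acts in the pituitary, thus differed by about 20 percentile points.

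The NK homeodomain genes formed the narrowest family. They ran from Nkx2-3 (55.3), of spleen and gut, through Nkx6-2 (52.9), Nkx6-1 (51.7), Nkx3-2 (45.8) and Nkx2-1 (40.5), a regulator of thyroid and lung, to Nkx2-9 (36.6) and the heart regulator Nkx2-5 (35.6).

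In the TALE group, Irx2 (70.6), Meis1 (66.7), Irx3 (63.1) and Irx5 (57.2) lay above the median member, as did Irx1 (50.7). Irx4 (40.5), Irx6 (33.8) and Meis2 (19.9) lay below it. Meis2 held 5 to 23 reads per untreated library, and its percentile ran from 9.35 to 29.4. Irx4 was the lowest of the linked Irx1, Irx2 and Irx4, and Irx6 the lowest of the linked Irx3, Irx5 and Irx6.

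Gbx2 was the most accessible of all members at 87.3. It acts at the midbrain-hindbrain boundary and is also known from the naive pluripotency network. The other Antennapedia class genes lay lower, with Msx1 at 69.2, Barx2 at 66.2, Msx2 at 58.2, En2 at 54.5, Emx2 at 50.4, Emx1 at 50.3 and Barhl1 at 48.3. Barx1 (43.7), Tlx1 (43.1), En1 (42.8), Barhl2 (41.4) and Gsx2 (40.3) followed.

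Among the paired-like genes, Pitx3, of lens and midbrain dopamine neurons, lay at 79.7 (71.1 to 89.7 over the untreated libraries), Pitx1, of the hindlimb, at 50.5 and Otp, of the hypothalamus, at 49.6. Alx1 and Alx4, of the facial skeleton, lay at 42.3 and 30.6.

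**Figure D2:**
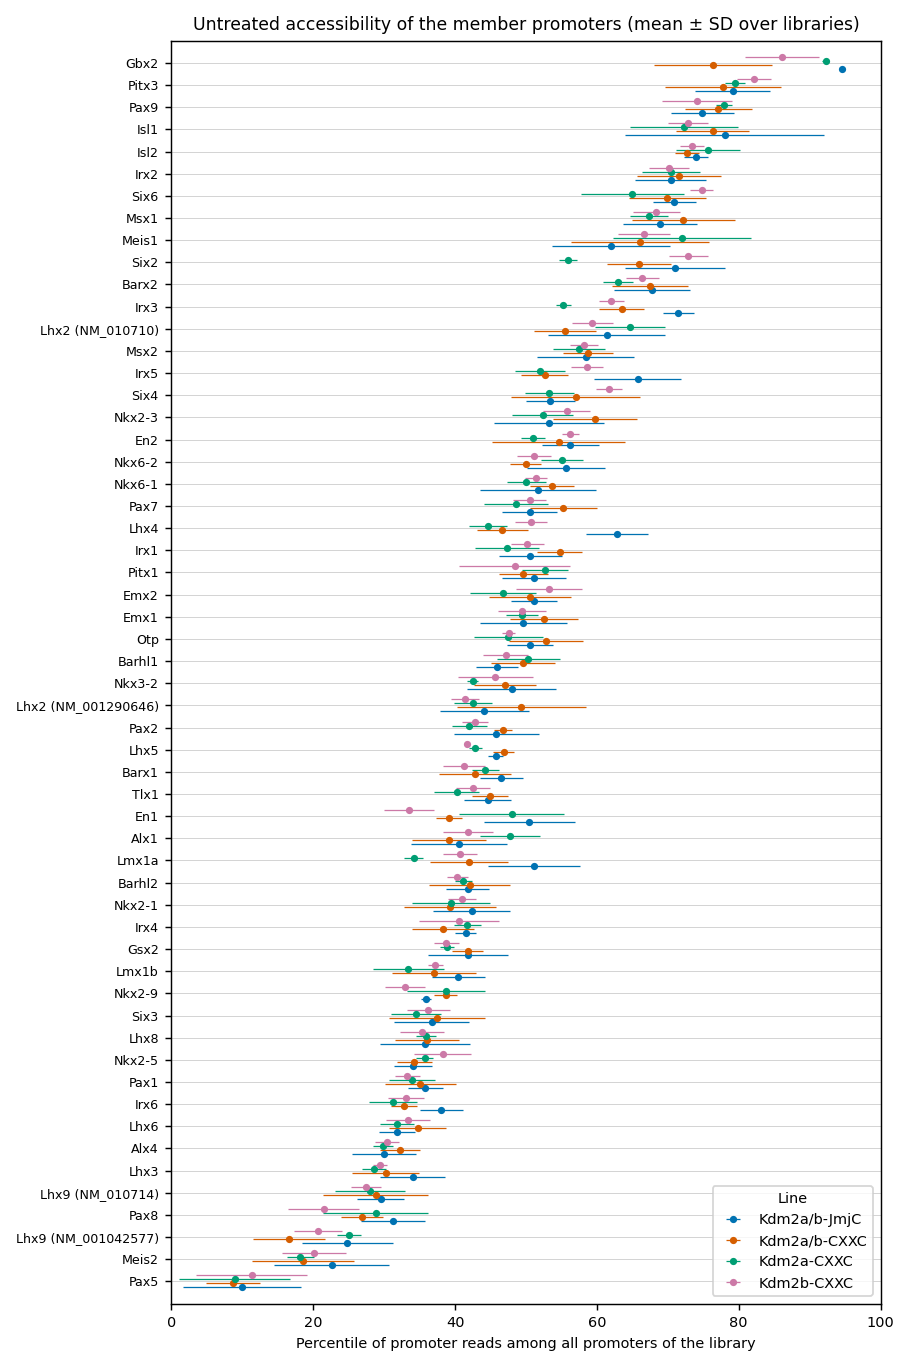
Untreated accessibility of the 56 member promoters, ordered by their mean. The horizontal axis is the percentile of a promoter's reads among all promoters of the library, points are means over 3 or 4 libraries of a line and bars are SD. Gbx2 stands at the top (87.3) and Pax5 at the bottom (9.72), and the points of Gbx2, Lhx4 and En1 lie far apart between lines.

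The order of the members was shared by the lines, with a Spearman correlation of the percentiles between 0.94 and 0.97 for the 6 pairs of lines (0.97 to 0.99 for all promoters). The largest spread between lines was found for Gbx2, Lhx4 and En1, which were named for this spread and are described without a test. Gbx2 lay at percentile 94.6 ± 0.4 (SD, n = 3) in Kdm2a/b-JmjC cells, 92.2 ± 0.5 (n = 3) in Kdm2a-CXXC, 86.2 ± 5.2 (n = 3) in Kdm2b-CXXC and 76.4 ± 8.4 (n = 4) in Kdm2a/b-CXXC. Lhx4 lay at 62.8 ± 4.4 in Kdm2a/b-JmjC and at 44.7 ± 2.7 to 50.7 ± 2.2 in the other lines. En1 lay at 50.5 ± 6.4 in Kdm2a/b-JmjC and 48.0 ± 7.4 in Kdm2a-CXXC, which overlapped, and at 39.2 ± 1.9 in Kdm2a/b-CXXC and 33.5 ± 3.5 in Kdm2b-CXXC.

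These 3 genes lie on chromosome 1, where reads differed between the lines at other promoters too. On the scale of log2(CPM + 1), where CPM scales each library to the same total of promoter reads, and taken as line minus the mean of the 4 lines, Gbx2 had 0.28 in Kdm2a/b-JmjC and 0.22 in Kdm2a-CXXC, against -0.41 in Kdm2a/b-CXXC and -0.08 in Kdm2b-CXXC. The medians of 107 other promoters within 5 Mb were 0.34, 0.24, -0.29 and -0.28 in the same order. En1 had 0.51, 0.25, -0.10 and -0.66, and its 30 neighbours 0.18, 0.74, -0.45 and -0.47. For both genes the neighbours had the same sign as the gene in every line.

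Other members of chromosomes 1 and 8 had the sign of their surroundings in Kdm2a/b-JmjC but, except for Irx5, not in every line. Lhx4 had 0.52 in Kdm2a/b-JmjC and its 58 neighbours 0.37, -0.48 in Kdm2a-CXXC beside -0.33, -0.12 in Kdm2a/b-CXXC beside -0.02, and 0.08 in Kdm2b-CXXC beside -0.02. On chromosome 8 the linked Irx3, Irx5 and Irx6 had 0.29, 0.33 and 0.43 in Kdm2a/b-JmjC, where 71 to 75 neighbours of each had 0.28. In Kdm2a-CXXC they had -0.38, -0.33 and -0.45, and the neighbours about -0.16. The signs of gene and neighbours differed for Irx3 (0.06 and -0.10) and Irx6 (0.04 and -0.10) in Kdm2a/b-CXXC, and for Irx6 in Kdm2b-CXXC (-0.02 and 0.03). They also differed in at least 1 line for Lmx1a and for each Lhx9 promoter. The median over 1021 other promoters of chromosome 1 was 0.28 in Kdm2a/b-JmjC, and over 914 of chromosome 8 it was 0.27. The part of the surroundings in the levels of these members was not tested. A comparison of treated with untreated cells stays within a line.

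**Figure D3:**
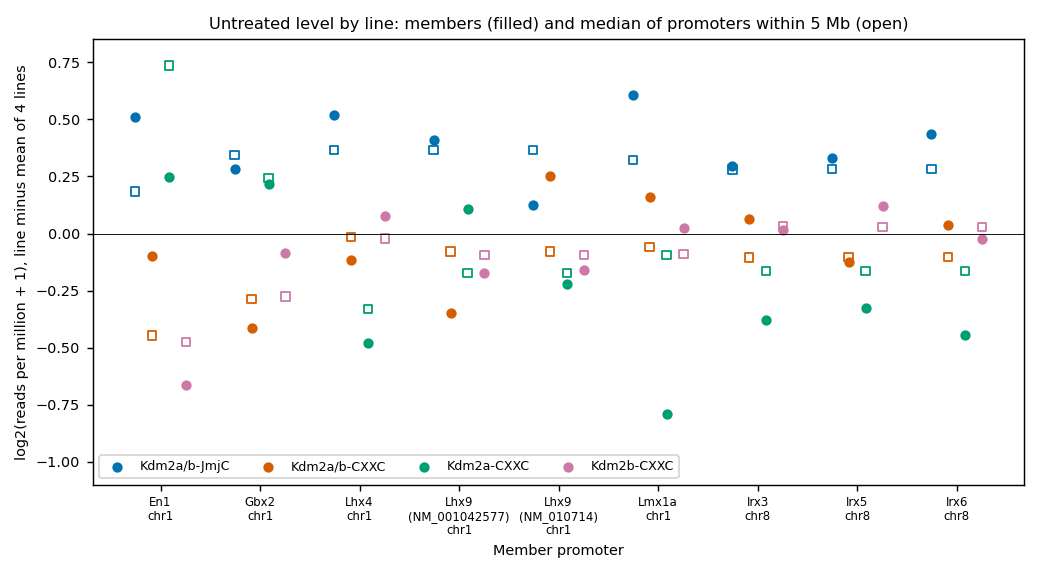
Untreated level of the 9 member promoters on chromosomes 1 and 8, as log2(CPM + 1) in a line minus the mean of the 4 lines (vertical axis). Filled circles are the members and open squares the median of other promoters within 5 Mb, in the colour of the line, and in Kdm2a/b-JmjC (blue) all members and all neighbour medians are above 0.

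After loss of the long KDM2A and KDM2B isoforms, no member promoter met both criteria, an adjusted p (Benjamini-Hochberg) below 0.05 together with a change of more than 1.4-fold, although 49 of the 55 members tested had a negative log2 fold change. Most of all promoters tested were negative too, with an upper quartile of -0.07. The test was limma on log2(calibrated reads + 1), fitted on all 17174 promoters that passed the filter on low reads, of which 13 passed (0.0757%). An unadjusted p under 0.05 was reached by 17 members with lower values and 0 with higher values. That is 30.9% of members for lower values, beside a background of 20.3% lower and 0.262% higher among all promoters. All tamoxifen libraries lay below all untreated ones for 17 members, beside 23.2% of all promoters. The median log2 fold change was -0.32 for members (SD 0.10 between libraries) and -0.21 for all promoters tested.

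By family, the unadjusted p was under 0.05 with lower values for 7 of 13 other Antennapedia class promoters, 3 of 13 LIM homeodomain, 2 of 8 TALE, 2 of 5 paired-like, 1 of 5 paired box, 1 of 4 sine oculis and 1 of 7 NK promoters. En1, a regulator of the midbrain and hindbrain, had 66.6, 60.7 and 88.9 calibrated reads in untreated and 41.6, 47.8 and 31.7 in tamoxifen-treated libraries. The groups did not overlap, and the log2 fold change was -0.82 ± 0.23 (SE, adjusted p = 0.0679). Irx5 had 128.7, 107.9 and 98.98 untreated and 68.3, 65.0 and 83.9 treated, again without overlap, and its log2 fold change was -0.62 ± 0.19 (adjusted p = 0.0782). Nkx6-2, expressed in ventral neural progenitors, had 97.1, 73.4 and 84.3 untreated and 80.1, 54.8 and 33.8 treated, so that 1 treated library lay inside the untreated range. Its log2 fold change was -0.66 ± 0.22 (adjusted p = 0.0917).

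The other 14 members with an unadjusted p under 0.05 had log2 fold changes from -0.96 to -0.32 and adjusted p-values from 0.1299 to 0.2384. Among Antennapedia class genes these were Barx1, with 62.1 ± 7.5 calibrated reads untreated and 41.5 ± 4.1 treated (SD, n = 3; log2 fold change -0.57), Emx2 (-0.52), Barx2 (-0.48), En2 (-0.45), Msx2 (-0.44) and Tlx1 (-0.49). Treated and untreated libraries did not overlap for Barx1, Emx2 and En2, and overlapped for Barx2, Msx2 and Tlx1. Irx3, with 128 ± 6 untreated and 96.3 ± 12.2 treated (-0.41), stood beside Irx5 in the same gene cluster, and Irx6, the third gene there, had no unadjusted p under 0.05. Six2 (-0.44), Pax1 (-0.71), Otp (-0.46), Pitx3 (-0.32) and Lhx4 (-0.42) did not overlap either, while Isl1 (-0.41) did. The 6 members with a positive value were Nkx2-5, Alx1, Six4, Six6 and Lhx6, between 0.01 and 0.08, and the Lhx9 promoter NM_010714.

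Medians were also set beside those of promoters of like accessibility, as a description with no test. In Kdm2a/b-JmjC the 25 members between percentile 50 and 75 had a median log2 fold change of -0.35 and all 5276 promoters of that range -0.23. The 25 members between percentile 25 and 50 had -0.24, and all 4822 such promoters -0.20. The spread between untreated libraries was of the same order, since the member median minus the median of all promoters ran from -0.08 to 0.12 in untreated and from -0.15 to -0.07 in treated libraries.

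A single library decided whether any member was called in this line. Tamoxifen replicate 1 had the smallest shift, with a median over members of -0.17, against -0.36 in each of the other treated libraries. Without it 607 of all promoters passed both thresholds (3.39%), among them 3 members (5.45% of those tested). These were En1 (log2 fold change -0.85, adjusted p = 0.0348), Nkx6-2 (-0.96, 0.0196) and Barx2 (-0.66, 0.0394), a homeobox gene of muscle and cartilage. Without untreated replicate 1 or without untreated replicate 2, 0 of all promoters passed in limma, with 2881 and 2231 at an unadjusted p under 0.05.

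With TMM scaling, which sets the bulk of promoters to no change, the member median moved towards 0 together with that of all promoters, and remained below it. The member median minus that of all promoters averaged -0.10 ± 0.04 (SD, n = 3) in treated libraries with the spike-in scaling and -0.10 ± 0.05 with TMM. Each scaling divides a library by a single factor, which moves members and all promoters alike. The gap between them could thus hardly change, and its value under TMM is not a separate observation. The median was -0.13 for members and -0.01 for all promoters, and 39 of 55 members had a negative value, beside 51.4% of all promoters. An unadjusted p under 0.05 was reached by 3 members with lower and 1 with higher values, and the background was 3% lower and 2.62% higher. En1 had -0.62 ± 0.23, Irx5 -0.42 ± 0.18 and Nkx6-2 -0.46 ± 0.21 on this scale, each with an adjusted p of 0.88.

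The member with the higher value under TMM was the Lhx9 promoter NM_010714. It had a calibrated mean of 22.8 ± 5.6 (SD, n = 3) untreated and 31.9 ± 2.0 (n = 3) treated, and a log2 fold change of 0.49 ± 0.32 on the calibrated and 0.69 ± 0.31 on the TMM scale. The other Lhx9 promoter, about 5 kb downstream, had 17.1 ± 5.8 and 8.12 ± 1.79, with a log2 fold change of -0.96 ± 0.47. The groups did not overlap at either promoter, but neither passed the adjusted threshold (0.37 and 0.23), and the pair was singled out after its values were seen. The Lhx2 promoters had log2 fold changes of -0.13 ± 0.19 (NM_010710) and -0.20 ± 0.24 (NM_001290646).

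Comparison lists gave values on both sides of the background in Kdm2a/b-JmjC. The median log2 fold change was -0.20 over 40 Hox promoters, of which 5 had lower values at an unadjusted p under 0.05. It was -0.28 over 28 promoters of broadly expressed homeobox genes, with 9 lower, and -0.25 over 33 Polycomb component promoters, with 10 lower. All CpG-rich promoters had a median of -0.23. No member, Hox, broadly expressed homeobox or Polycomb component promoter passed both thresholds.

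Loss of the ZF-CxxC domain of both proteins gave 0 calls, both among 53 members tested and among all 16413 promoters (0%) by limma, and also 0 by edgeR and 0 by DESeq2, while 764 promoters had an unadjusted limma p under 0.05. Meis2 and the Lhx9 promoter NM_001042577 were too low to be tested here, and Pax5 in any line. The median log2 fold change was 0.02 for members and 0.09 for all promoters. Of the 53 members 28 had a positive value, and most of all promoters did too, with a lower quartile of -0.04. With TMM scaling the member median was -0.07 and 20 were positive, so the direction of the median depended on the scaling. The median over all promoters was then 0.0007.

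An unadjusted p under 0.05 was reached by 2 members with higher values, beside 3.58% of all promoters, and 1 with a lower value, beside 1.07%. Gbx2 had 88.9, 135.5, 126.5 and 132.6 calibrated reads in untreated and 206.1, 155.3, 157.5 and 134 in treated libraries. The groups overlapped by the lowest treated library, and the log2 fold change was 0.43 ± 0.19 (SE, adjusted p = 0.996). Nkx2-5 had 25.7, 36.9, 30.9 and 22.3 untreated and 45.0, 46.7, 41.1 and 41.7 treated, without overlap, and a log2 fold change of 0.60 ± 0.26 (adjusted p = 0.996). Pax7 had 84.0, 67.8, 68.4 and 69.7 untreated and 75.5, 56.0, 40.1 and 44.1 treated, so that 1 treated library lay inside the untreated range, and a log2 fold change of -0.46 ± 0.22 (adjusted p = 0.996).

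On the TMM scale the same members had log2 fold changes of 0.35 ± 0.12 (Gbx2), 0.52 ± 0.23 (Nkx2-5) and -0.54 ± 0.17 (Pax7), with adjusted p-values of 0.26, 0.43 and 0.19. There, 2 members with higher and 3 with lower values had an unadjusted p under 0.05, and the background was 4.67% and 4.97%. By family the calibrated medians lay between -0.17 for 5 paired box and 0.09 for 7 TALE promoters.

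After loss of the ZF-CxxC domain of KDM2A alone, 52 of 55 members had a negative value, yet the member median of -0.21 was close to that of all 17727 promoters, -0.18. Most of all promoters were negative too, with an upper quartile of -0.05. No promoter was called by limma (0%), edgeR or DESeq2, with 1488 at an unadjusted p under 0.05 in limma. Lower values at an unadjusted p under 0.05 were found for 5 members, beside 8% of all promoters, and higher values for 0, beside 0.395%. These fits do not pair the replicates. With a replicate block, 11 members had an unadjusted limma p under 0.05, all lower, beside 3895 of all 17727 promoters. In that fit 188 promoters were called, among them 0 members. With TMM scaling the median was -0.04 and 33 of 55 members were negative, beside a median of -0.01 for all promoters. No member then had an unadjusted p under 0.05, and the background was 3.51% lower and 2.69% higher.

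Otp had 71.7, 56.3 and 93.2 calibrated reads untreated and 41.0, 63.9 and 44.4 treated (log2 fold change -0.56 ± 0.24). Alx1 had 72.6, 58.6 and 91.2 untreated and 35.7, 51.3 and 66.0 treated (-0.55 ± 0.24). Isl2 had 188, 168 and 181 untreated and 88.0, 144 and 179 treated (-0.44 ± 0.19). In each of these the treated and untreated libraries overlapped, and the adjusted p was 0.581. In the fit without the block, the other 2 members with an unadjusted p under 0.05 were Barhl1, with a log2 fold change of -0.53, and Pax8, with -0.83. Pax8 held only 17, 18 and 6 reads in the treated libraries.

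Loss of the ZF-CxxC domain of KDM2B alone left 38 of 55 members with a positive value, with a median log2 fold change of 0.08 beside 0.10 for all 17930 promoters. Most of all promoters were positive too, with a lower quartile of -0.02. No promoter passed both thresholds (0%) by limma, edgeR or DESeq2, and 120 had an unadjusted p under 0.05 in limma. No member had an unadjusted p under 0.05, where the background was 0.519% higher and 0.151% lower. The SD of the member median between libraries was 0.37, the largest of the 4 lines. A shift of the size of the median could thus not be detected by this fit, which does not pair the replicates. With a replicate block, 3 members had an unadjusted limma p under 0.05, all higher, beside 1785 of all 17930 promoters. With TMM scaling, which turned the median to -0.02, 31 of 55 members were negative, beside a median of -0.003 for all promoters. On that scale 1 member, Nkx2-9, had an unadjusted p under 0.05 with a higher value, beside 3.42% higher and 4.36% lower among all promoters.

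Nkx2-9, of the ventral neural tube, had 35.7, 31.9 and 38.6 calibrated reads untreated and 83.6, 40.4 and 47.4 treated, without overlap (log2 fold change 0.61 ± 0.39, adjusted p = 1.00). The Lhx9 promoter NM_001042577 had 13.8, 12.7 and 12.3 untreated and 33.4, 13.8 and 24.5 treated (0.75 ± 0.50). Lhx3 had 38.0, 20.54 and 23.7 untreated and 52.9, 33.5 and 33.5 treated (0.54 ± 0.42). The groups overlapped for Lhx9 and Lhx3, and in all 3 promoters treated replicate 1 was the highest library.

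**Figure D4:**
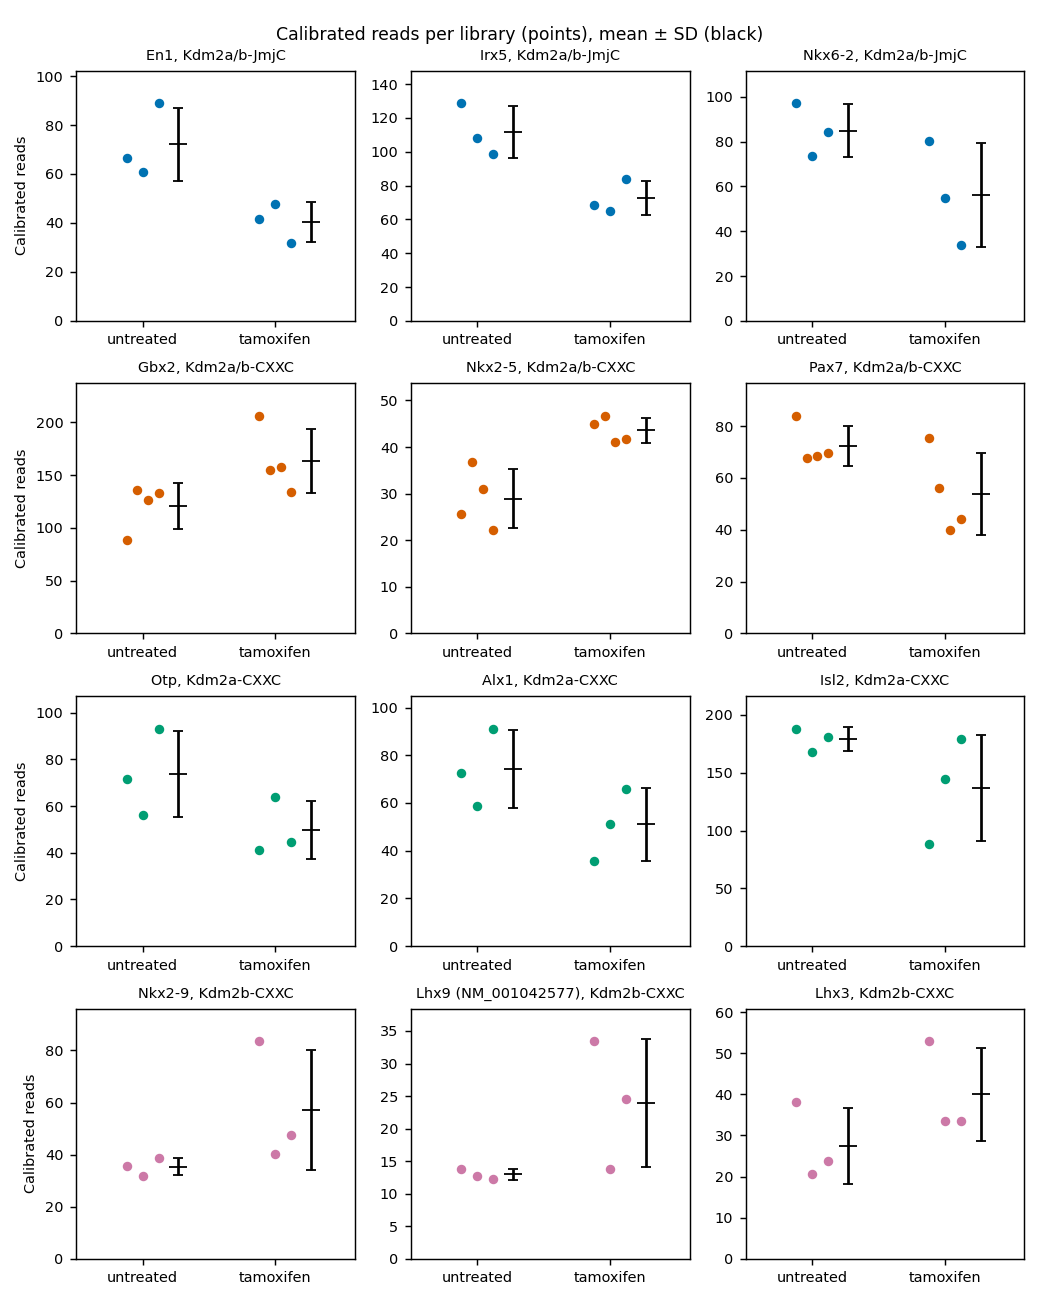
Calibrated reads per library (points) with mean ± SD (black) in untreated and tamoxifen-treated cells, for the 3 members with the smallest unadjusted p in each line, 1 line per row; each vertical axis starts at 0. Untreated and treated libraries do not overlap for En1, Irx5, Nkx2-5 and Nkx2-9, and overlap for the other 8 panels. The choice by smallest p favours groups without overlap, and the share over all promoters is given for Kdm2a/b-JmjC only.

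**Figure D5:**
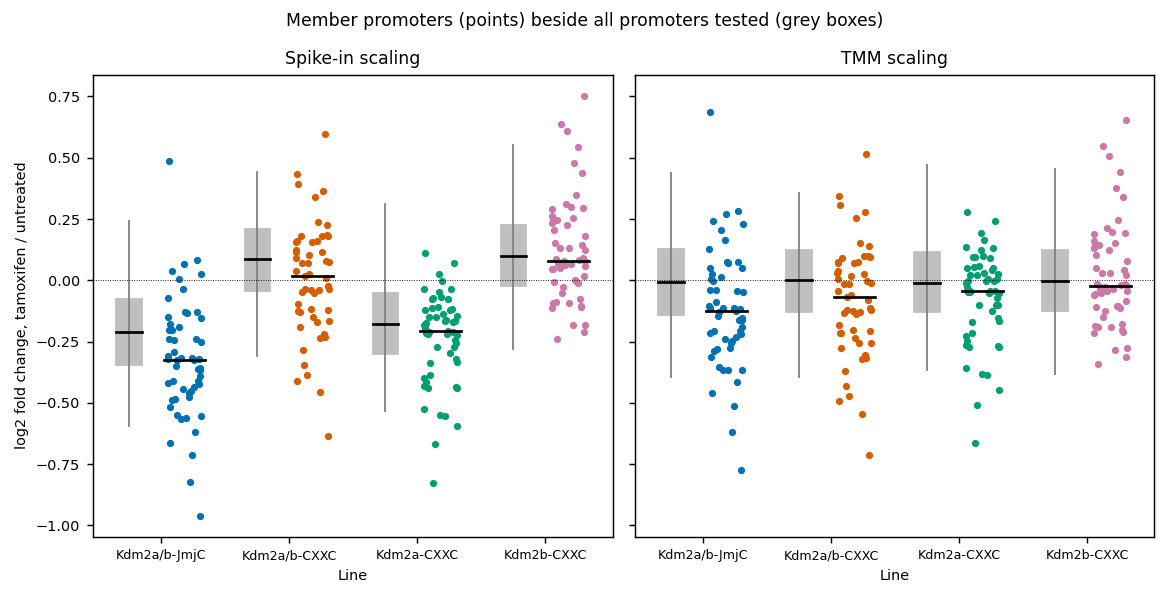
Log2 fold change of tamoxifen-treated over untreated cells (vertical axis) with the spike-in scaling (left) and TMM scaling (right). Points are member promoters and black bars their medians, which are -0.32, 0.02, -0.21 and 0.08 on the left and -0.13, -0.07, -0.04 and -0.02 on the right. Grey boxes are the middle 50% of all promoters tested, with their median and lines from the 5th to the 95th percentile.

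Across the lines, 53 members were tested in all 4, and 9 of them had the same sign in each, negative in every case. The same count was not made over all promoters, so it does not set the members apart. The 9 members were Alx4, Emx2, En2, Irx6, Lhx8, Nkx2-1, Otp, Pax7 and Tlx1, and the largest values throughout were those of Pax7, Otp and Tlx1, which were named for this. Pax7 had log2 fold changes of -0.37 in Kdm2a/b-JmjC, -0.44 in Kdm2a-CXXC, -0.21 in Kdm2b-CXXC and -0.46 in Kdm2a/b-CXXC. In the same order Otp had -0.46, -0.56, -0.18 and -0.17, and Tlx1, a factor needed for the spleen, had -0.49, -0.21, -0.24 and -0.13. All 12 values remained negative with TMM scaling, and none passed the threshold in any line.

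Differences between the responses of the lines were tested directly with an interaction term over the 26 libraries and 19621 promoters. Between Kdm2a/b-CXXC and Kdm2a/b-JmjC no promoter passed (0%), and 6 of 55 members had an unadjusted p under 0.05, beside 7.58% of all promoters. With TMM scaling these were 5 members and 7.85%. The smallest p was that of Irx5, whose log2 fold change was 0.36 in Kdm2a/b-CXXC and -0.62 in Kdm2a/b-JmjC, a difference of 0.98 (95% interval 0.33 to 1.64, adjusted p = 0.656 from limma). En1 differed by 1.06 (0.30 to 1.82) and Pax1 by 1.10 (0.25 to 1.96), both with the same adjusted p. Gbx2 (0.63) and Nkx6-2 (0.73) also had higher values in Kdm2a/b-CXXC, while the Lhx9 promoter NM_010714 had -1.12. The median difference was 0.34 for members and 0.29 for all promoters, and 0.05 and 0.00 with TMM scaling.

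Between Kdm2b-CXXC and Kdm2a-CXXC no promoter passed (0%), and 2 members had an unadjusted p under 0.05, beside 3.63% of all promoters. These were Pax8, with a difference of 1.46 (0.29 to 2.64), and Barhl1, with 0.82 (0.07 to 1.56), both with an adjusted p of 0.856 from limma. Pax8 was low in reads, with 17, 18 and 6 in treated Kdm2a-CXXC and 24, 14 and 11 in untreated Kdm2b-CXXC libraries. With TMM scaling only Pax8 had an unadjusted p under 0.05, beside 3.97% of all promoters. Between Kdm2a/b-CXXC and Kdm2b-CXXC no promoter passed (0%) and no member had an unadjusted p under 0.05, beside 1.42% of all promoters. With TMM scaling 3 members did, beside 4.63% of all promoters. These were Gbx2, with a difference of 0.41, Nkx2-5, with 0.73, and Pax8, with -1.03, each with an adjusted p of 0.998 from limma. The median standard error of a member's difference was between 0.36 and 0.39 on the log2 scale, and a p above the threshold does not show that the lines responded alike.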

How the data were processed

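The labels gave 52 libraries, 26 of ATAC-seq and 26 of input genomic DNA, and the latter are not analysed here. Per the study's methods, the authors aligned reads with Bowtie 2 to joined mm10 and dm6 genomes, removed duplicates with SAMtools, counted mouse reads at gene promoters, and took DESeq2 size factors from the Drosophila reads, corrected by the input. The deposited value is a signal, mouse reads divided by the size factor, and the deposited intervals are 400 bp long. The deposited fold changes and p-values compare tamoxifen with untreated cells and were not used.

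Whole reads were recovered from the steps of each column (100% of values within 0.01 of a whole number; size factors 0.718 to 1.41). Since the values were normalized, the test was limma 3.58.1 (R 4.3.3) with a trend on log2(calibrated reads + 1), after filterByExpr of edgeR 4.0.16 on recovered reads, within each line. This scale understates changes at low values, and the adjusted p-values are from this fit. Alternatives were TMM scaling, no filter, a pseudocount of 5, a replicate block, leaving out each library, edgeR's quasi-likelihood test and DESeq2 1.42.0 on recovered reads. Fits were also run on simulated reads scaled by their known size factors. Such reads hold no error of the calibration, so this run does not show how the fits behave under it.

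Of the deposited identifiers 99.6% had a symbol, through RefSeq or GENCODE. Intervals of the deposited tables and the GRCm38.p6 reference share a build. PCR copies lack molecular identifiers, so read numbers give counting error only. Replicates differed by more than counting error, with a variance ratio of 1.90 to 2.36. Per-library values were given for the 3 members with the smallest unadjusted p in a line where fewer than 3 passed, the 3 highest, 3 lowest and 3 most variable in untreated percentile between lines, and the 3 with the largest minimum change among those with the same sign in all lines. The members, lists and rules were chosen with earlier results of these data known.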

Additional observations from a re-analysis of the deposited data

Results flagged for a closer look

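In the Kdm2a/b-CXXC line, whose groups hold 4 libraries, 38 groups of values were examined for a library far from the others, and 5 stood out by Dixon's criterion, which chance meets in about 1 group in 20. Alx1 had 23.9 calibrated reads in untreated replicate 2, against 41.5 to 44.5 in the others. Meis2 had 19.1 in tamoxifen replicate 1, against 7.64 to 8.80. Nkx2-9 had 43.1 in untreated replicate 3, against 35.6 to 36.8. Pax7 had 84.0 in untreated replicate 1, against 67.8 to 69.7, and Pitx3 had 166 in untreated replicate 2, against 110 to 114. The libraries concerned were not the same, and no difference in response between lines passed the adjusted threshold.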

How the results depend on the processing

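The count of members past both thresholds was 0 in every line under TMM scaling, no filter, pseudocount 5, edgeR and DESeq2. With each library left out in turn it was 0 to 3 in Kdm2a/b-JmjC and 0 in the other lines, and the count of members whose response differed stayed at 0 in all 3 contrasts. TMM scaling moved the member median to -0.13 in Kdm2a/b-JmjC and -0.0422 in Kdm2a-CXXC, and these were also the values of the replicate block with TMM scaling. Leaving out each library gave medians of -0.37 to -0.26 in Kdm2a/b-JmjC, -0.07 to 0.08 in Kdm2a/b-CXXC, -0.28 to -0.12 in Kdm2a-CXXC and -0.12 to 0.28 in Kdm2b-CXXC, so the sign of the median depends on single libraries in Kdm2a/b-CXXC and Kdm2b-CXXC. Members were named for a small p or for the same sign in all lines, so a kept sign was likely from the start. A replicate block cannot alter a fold change here, since each number has an untreated and a treated library. For the 3 members with the smallest p in each line, and for Pax7, Otp and Tlx1 in all lines, the log2 fold change kept its sign under each alternative. With TMM scaling that of Gbx2 (-0.20 to 0.00) and Pax9 (-0.19 to 0.01) in Kdm2a/b-JmjC, En1 in Kdm2a-CXXC (-0.16 to 0.01) and Irx5 in Kdm2b-CXXC (0.08 to -0.02), among others, did not. Replicate numbers were not used as pairs in the main fit, as the correlation of same-numbered deviations was 0.07 or less. In Kdm2a/b-JmjC 6 of 6 libraries correlated best with their own number. The library-wide shift followed the number in Kdm2b-CXXC and Kdm2a-CXXC. Calibrated log2 medians over all promoters, relative to the untreated mean, were 0.41, -0.34 and -0.06 in untreated Kdm2b-CXXC replicates. Treated ones had 0.53, -0.16 and -0.05. In Kdm2a-CXXC they were -0.12, 0.005 and 0.12 untreated and -0.37, -0.16 and 0.02 treated. The replicate block left the count of members called at 0 in each line, while calls over all promoters went from 13 to 62 in Kdm2a/b-JmjC, 0 to 188 in Kdm2a-CXXC and 0 to 5 in Kdm2b-CXXC. Calls over all promoters also differed in Kdm2a/b-JmjC with TMM (0), a pseudocount of 5 (71) and edgeR (114), and in Kdm2a/b-CXXC with TMM (17). Without tamoxifen replicate 3 there were 43 in Kdm2a-CXXC, and without tamoxifen replicate 1 or 4 there were 5 and 8 in Kdm2a/b-CXXC. The causes were not tested. The low reads at Pax5, Meis2, Pax8 and Lhx9 limit what can be seen there.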
